A study of Mus musculus with 22 samples.

Results

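DNA methylation of wild-type fetal mouse liver was compared between the embryonic stages E14.5 and E18.5 by whole genome bisulphite sequencing. These are 4 of the 22 samples of the series, 2 livers at each stage, and all 4 were taken by their labelled genotype, tissue and stage without regard to any measured value. The animals were wild type for Rlf, on an inbred FVB background (FVB/NJ, Line3), and were homozygous for a multi-copy GFP transgene driven by the human alpha-globin promoter and HS-40 enhancer, which every animal of the series carried. Both parents of each litter carried 1 mutant Rlf allele. Replicate 1 at E14.5 was labelled male and the other 3 livers female. Each library was made from a whole liver, so it averages over all cells in the organ, and fewer cells of a type cannot be told apart from a change of methylation within that type. Bisulphite converts unmethylated cytosine, so the methylation level is the percent of reads that kept a C. Chromosomes 1 to 19 were divided into tiles of 1 kb, and a tile was tested where each of the 4 livers had 6 or more reads on the same 8 or more CpGs, which 726,814 tiles met.

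The fetal liver is a blood-forming organ as well as a digestive one. Around E14.5 most of its cells are erythroid, that is precursors of red cells, with megakaryocytes, macrophages and progenitors among them, and towards birth blood formation moves to the bone marrow while hepatocytes multiply and mature. Cytosine methylation at CpGs is copied at cell division, and active enhancers and CpG-rich promoters are usually kept free of it, so a level averaged over a tissue depends on its cell types. RNA-seq of 3 wild-type E14.5 livers showed this mixed content. Per exon length (RPKM), the hepatoblast genes Alb and Afp, which encode albumin and alpha-fetoprotein, stood at 13039 ± 1064 and 14294 ± 1037 (SD, n = 3), and Hnf4a, a hepatocyte transcription factor, at 48.1 ± 4.5. The erythroid genes Hbb-b1, a beta-globin, and Klf1, an erythroid transcription factor, stood at 23626 ± 8317 and 327.4 ± 29.2. Markers of macrophages (C1qa, 46.8 ± 5.6), megakaryocytes (Pf4, 258.8 ± 11.03), endothelium (Cdh5, 15.6 ± 1.4), neutrophils (S100a8, 462.5 ± 109.3) and stellate cells (Des, 3.98 ± 0.40) were detected as well. The RNA-seq of the series covers E14.5 livers only, so RNA was not compared between the stages.

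The DNA below shows examples, 1 of the largest gains and 3 of the largest losses. Each is the stretch of 200 bases with the most covered CpGs inside a called tile, read from the plus strand of NCBIM37 (mm9), in lower case with the measured CpGs in capitals. FVB/NJ substitutions are not drawn in.
Vangl1 gain: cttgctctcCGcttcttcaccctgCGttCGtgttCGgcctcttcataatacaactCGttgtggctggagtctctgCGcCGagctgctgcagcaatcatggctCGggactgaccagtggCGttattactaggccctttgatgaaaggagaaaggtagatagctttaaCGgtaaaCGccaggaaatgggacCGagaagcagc
Arid4a loss: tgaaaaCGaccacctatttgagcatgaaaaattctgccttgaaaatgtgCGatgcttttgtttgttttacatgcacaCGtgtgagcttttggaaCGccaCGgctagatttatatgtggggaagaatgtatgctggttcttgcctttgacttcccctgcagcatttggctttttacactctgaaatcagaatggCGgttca
Vps13d loss: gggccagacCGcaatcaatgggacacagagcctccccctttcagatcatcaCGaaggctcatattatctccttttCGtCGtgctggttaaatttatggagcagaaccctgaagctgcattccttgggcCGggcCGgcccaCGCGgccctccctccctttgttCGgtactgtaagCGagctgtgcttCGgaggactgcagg
Hif3a loss: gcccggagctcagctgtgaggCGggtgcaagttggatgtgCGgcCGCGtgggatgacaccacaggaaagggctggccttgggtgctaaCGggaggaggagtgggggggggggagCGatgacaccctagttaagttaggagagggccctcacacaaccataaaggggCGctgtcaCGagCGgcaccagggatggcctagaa
The Vangl1 stretch (chr3:101969278-101969477), over coding exon 6 of 8 and the adjoining intron, held 12 CpGs. Their methylation over reads was 23.4% and 25.8% in the E14.5 livers and 70.2% and 64.6% in the E18.5 livers. The change was spread along the stretch, since at all 12 CpGs both E18.5 livers were above both E14.5 livers. The Arid4a stretch (chr12:72149033-72149232), intronic in the long transcripts and just upstream of a shorter one, held 6 CpGs at 68.9% and 69.97%, then 27.2% and 23.8%. The intronic Vps13d stretch (chr4:144590001-144590200) held 11 CpGs at 56.4% and 51.99%, then 19.8% and 16.99%. The Hif3a stretch (chr7:17646211-17646410), in an intron, held 9 CpGs at 70.5% and 68.0%, then 2.33% and 7.32%. At all CpGs of these 3 losses both E18.5 livers were below both E14.5 livers. Between 82 and 581 reads per liver lay behind each of these percentages.

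The libraries differed in depth with stage, at 34.2 and 33.8 reads per reference CpG at E14.5 and 16.7 and 16.5 at E18.5. The read depth of X and Y matched 1 male and 3 females as labelled. Unconverted cytosine in the spiked lambda DNA was 0.0412% to 0.0590%. Stage, litter and depth cannot be told apart, and the male liver is on the E14.5 side only.

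The liver genome was more methylated at E18.5 than at E14.5. Over 15,211,470 CpGs covered in all 4 livers, the share of methylated reads was 56.1% and 58.2% at E14.5 (57.2% ± 1.5, SD, n = 2) and 61.1% and 61.4% at E18.5 (61.3% ± 0.2, n = 2). The groups did not overlap and differed by 4.11 points, which is larger than the spread within either stage among these 4 livers. Mutant livers, given further below, were spread more widely at E18.5. With 2 livers a stage, the exact two-sided permutation test cannot go below p = 0.33, which is what it gave. The female E14.5 liver was the nearer to E18.5, and without the male the difference was 3.06 points. Every one of the 19 chromosomes rose in mean level, by 3.24 points on chromosome 17 to 4.63 points on chromosome 1. The rise was broad, with both E18.5 livers above both E14.5 livers in 14,089 of 17,209 windows of 100 kb (81.9%) and below them in 742.

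Tile by tile the shift was of the same kind. The median difference was 4.895 points, with a 5th percentile of -2.30 and a 95th of 12.4, and 86.4% of tiles had the higher mean at E18.5. The median gap between replicates, signed as replicate 2 minus replicate 1, was 2.43 points at E14.5 and 0.28 points at E18.5, so part of the spread between livers was also a shift in 1 direction. A tile was called where edgeR's quasi-likelihood test, adjusted over all tiles by Benjamini-Hochberg, gave p under 0.05 and the group means differed by more than 15 points. At E18.5, 11,595 tiles were more methylated (1.6% of those tested) and 392 less methylated (0.0539%). In 11,588 and 391 of these the livers of the stages did not overlap, which over all tiles was so of 59.1% in the upward and 4.62% in the downward direction. Measured against the median shift instead, 1053 tiles (0.145%) rose and 2082 (0.286%) fell by more than 15 points relative to it. The number of gains varied with the livers used, with 4866 without E14.5 replicate 1, which leaves females only, 32,716 without E14.5 replicate 2, 12,041 without E18.5 replicate 1 and 7630 without E18.5 replicate 2. In such a fit the lone liver of a stage is assumed to vary like the pair of the other stage. The losses ranged from 347 to 491 without each liver in turn. Among females only, 3861 of the 11,595 gains (33.3%) and 285 of the 392 losses (72.7%) were called again.

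**Figure D1:**
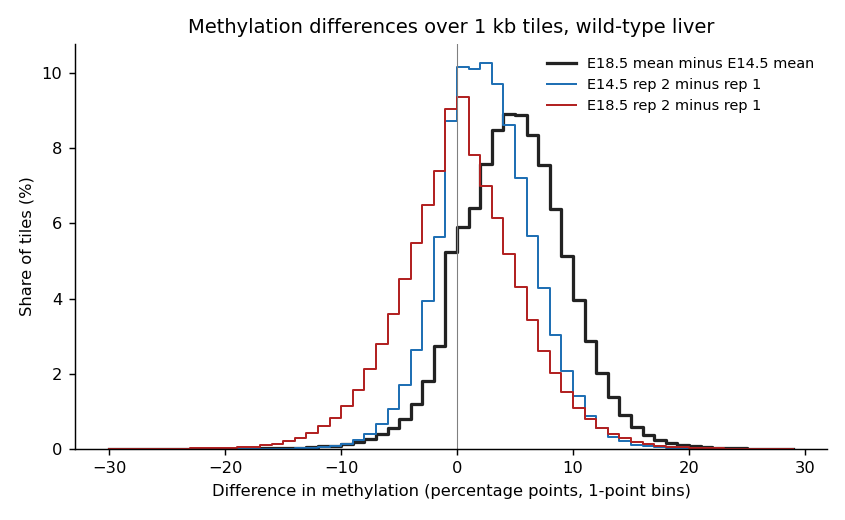
Share of 1 kb tiles (percent, vertical axis) by difference in methylation (percentage points, horizontal axis, values beyond 30 points in the end bins). The black line, E18.5 mean minus E14.5 mean, is shifted to the right of 0 with a median of 4.895, and the lines for replicate 2 minus replicate 1 within a stage have medians of 2.43 (E14.5) and 0.28 (E18.5).

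The longest runs of gaining tiles lay mostly in the HoxA cluster, a row of homeobox genes on chromosome 6 that set position along the body axis and that also act in blood progenitors. Of the 11,156 runs of called gains, 393 held at least 2 called tiles and 7 at least 4, and 5 of these 7 were in this cluster. The longest run, of 6 tiles at chr6:52150001-52157000 over Hoxa5 and Hoxa6, stood at 13.2% and 11.04% at E14.5 and at 40.0% and 40.9% at E18.5. The next, of 5 tiles at chr6:52117001-52123000 over the 3′ part of Hoxa3, stood at 7.16% and 7.41%, then at 27.8% and 28.9%. A run of 4 tiles at chr6:52133001-52138000, inside the annotated span of Hoxa3, stood at 17.7% and 16.5%, then at 47.4% and 41.6%. In these 3 runs the livers of a stage lay within 6 points of each other and the stages at least 20 points apart. Across the cluster and 5 kb on either side, 27 of 89 tiles were called as gains (30.3%, against 1.6% of all tiles) and 0 as losses. The called tiles had a median difference of 24.6 points, and 0 of the 33 tiles from Hoxa9 to Hoxa13 were among them. The mean over reads across the cluster went from 4.87% ± 0.32 to 11.6% ± 0.3 (SD, n = 2 each), and from Hoxa9 to Hoxa13 it was 2.69% ± 0.02 and 2.81% ± 0.15. In the HoxB cluster 1 of 120 tiles was called as a gain, and in HoxC and HoxD 0 of 78 and 0 of 74, counts near what the 1.6% of all tiles gives. The comparison of the 4 clusters and the split of HoxA were chosen after the values were seen. In E10.5 embryos the 27 called tiles had a median of 3.09%, ranging from 0.263% to 19.8%. In E14.5 livers the mean RNA of the genes from Hoxa2 to Hoxa7 ran from 0 to 1.31 RPKM and of those from Hoxa9 to Hoxa13 from 0 to 0.23 RPKM (n = 3), so the ranges overlapped.

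**Figure D2:**
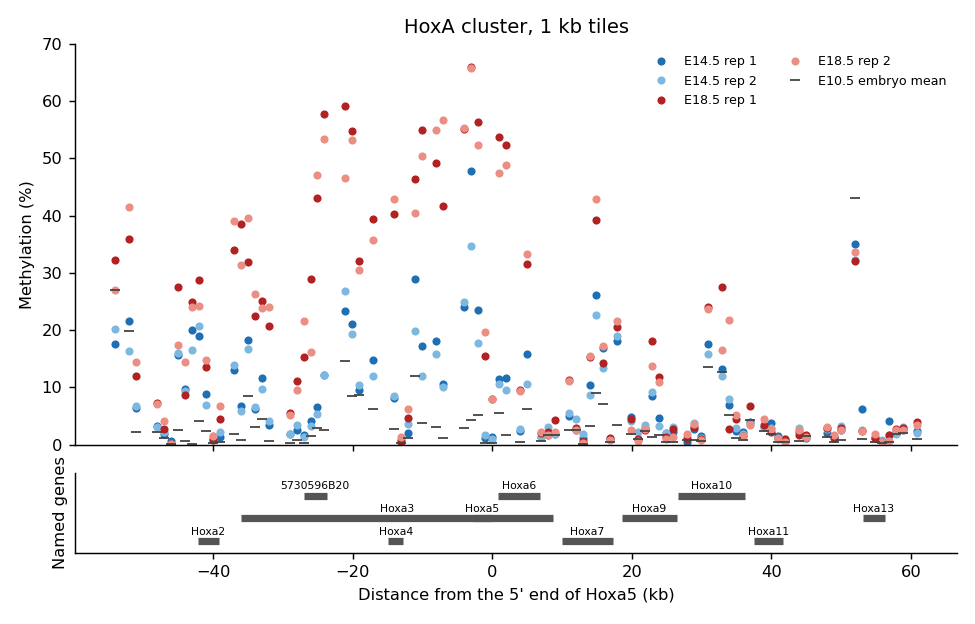
Methylation (percent) of each 1 kb tile in the HoxA cluster against distance from the 5′ end of Hoxa5 (kb), with 1 dot per liver, a dash for the E10.5 embryo mean, and named genes as bars below. The E18.5 livers lie above the E14.5 livers in the 27 called tiles, and the 33 tiles from Hoxa9 to Hoxa13 show no called gain.

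The largest single gains and losses were taken from called tiles whose livers did not overlap between the stages, at least 20 kb apart. Among the 10 largest single gains, 2 were in the HoxA cluster. The largest was the tile chr6:52130001-52131000, in the only exon of 5730596B20Rik, which lies inside the annotated span of Hoxa3, with 12.2% and 12.1% at E14.5 and 57.7% and 53.3% at E18.5 over 19 CpGs (difference 43.4 points, edgeR adjusted p = 3.6e-38). The next, chr13:22023001-22024000, lay between genes, upstream of the zinc finger gene Zfp184, and went from 25.7% and 27.97% to 68.7% and 68.3% (adjusted p = 3.0e-21). In the tile over exon 6 of Vangl1, a planar cell polarity gene, the levels were 15.04% and 18.999%, then 62.0% and 53.5% (adjusted p = 1.9e-38). The tile at Hoxa6 went from 11.6% and 9.55% to 52.3% and 48.9% (adjusted p = 1.8e-49). At these 4 tiles the lowest E18.5 liver was more than 30 points above the highest E14.5 liver. The other 6 gained 33.7 to 37.5 points, in the last exon of the kinase gene Sbk1 (exon 4 of 4), introns of Rnf220, Dcbld1, Bcl2l13 and Rasal2, and the last exon of Zfp579 (exon 3 of 3). They differed in their level in whole E10.5 embryos, another tissue. The Rnf220 tile stood at 7.85% in E10.5 embryos, 9.42% and 8.90% at E14.5 and 45.0% and 47.0% at E18.5, whereas the Bcl2l13 tile stood at 91.9% in embryos, 30.1% and 23.3% at E14.5 and 53.7% and 68.6% at E18.5.

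Of the 10 largest losses 6 lay in introns, as did 210 of the 392 called losses and 251,029 of the 726,814 tiles tested. The largest, chr12:72149001-72150000, overlaps the start of a short transcript inside Arid4a, a chromatin regulator, and fell from 66.4% and 66.4% to 30% and 28.9% (difference -36.9 points, edgeR adjusted p = 8.9e-19). In Vps13d, chr4:144590001-144591000, the levels were 57.2% and 54.3%, then 21.2% and 19.03% (adjusted p = 2.1e-19). The tile with exon 14 of 24 of Ide, the insulin-degrading enzyme, went from 70.9% and 75.6% to 40.9% and 37.2% (adjusted p = 1.1e-13). At these 3 tiles every E18.5 liver was at least 25 points below every E14.5 liver. In Hif3a, a hypoxia-inducible factor subunit, chr7:17646001-17647000 went from 63.6% and 69.5% to 28.6% and 37.5% (adjusted p = 1.7e-14). In Zbtb16, a zinc finger transcription factor, chr9:48548001-48549000 went from 60.4% and 55.8% to 22.6% and 27.05% (adjusted p = 1.9e-07). In Arid3a, a transcription factor of blood and other cells, chr10:79399001-79400000 went from 55.8% and 61.4% to 23.8% and 27.5% (adjusted p = 9.8e-19). The remaining 4 fell by 28.03 to 31.9 points, in Txnrd1, which encodes thioredoxin reductase, in Itpr1, which encodes a calcium channel of the endoplasmic reticulum, at the start of 2810055G20Rik, and between genes near Vmn2r82. Of the 374 runs of losses, 16 held at least 2 called tiles. Both runs of 3 tiles were in Elf1 (chr14:79916001-79920000, 3 tiles, 50.7% and 51.6%, then 29.2% and 28.6%), an Ets-family transcription factor, and in Scd2 (chr19:44370001-44373000, 3 tiles, 55.8% and 54.8%, then 37.1% and 38.9%), a fatty acid desaturase. Among the 14 runs of 2 tiles, one in Rbms1 (chr2:60639001-60642000) went from 64.5% and 65.8% to 47.1% and 49.3%. Elf1 also held a run of 4 gaining tiles, chr14:79934001-79939000, from 26.99% and 30.6% to 48.2% and 47.8%.

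**Figure D3:**
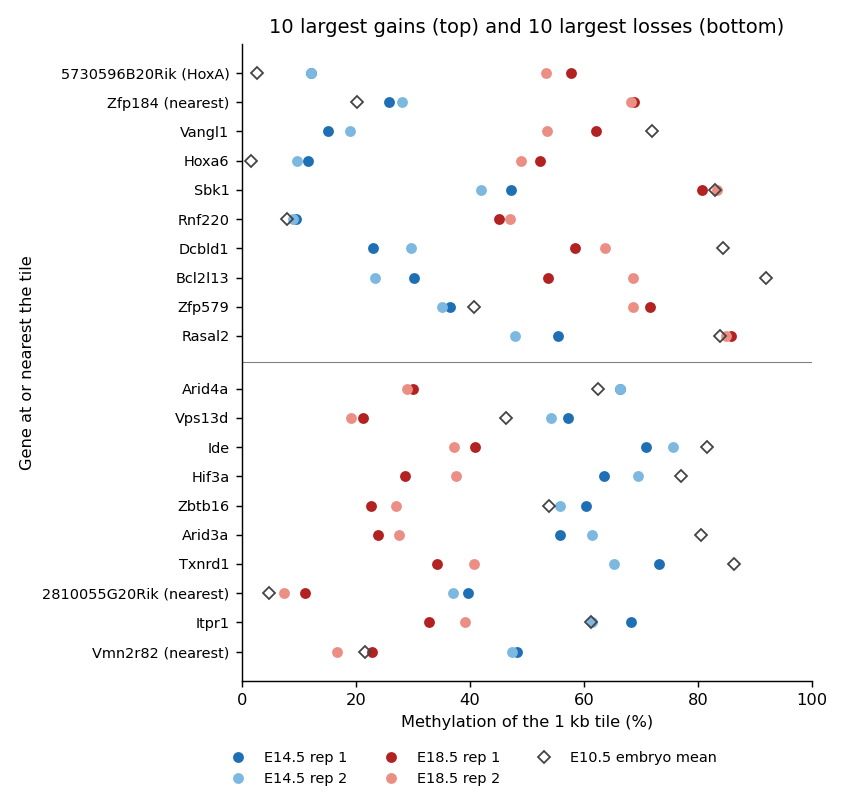
Methylation (percent) of the 10 largest gains (upper block) and 10 largest losses (lower block), with 1 dot per liver and an open diamond for the mean of 2 E10.5 embryos. Only tiles whose livers did not overlap between the stages could be chosen, so the blue E14.5 and red E18.5 dots are apart by selection. The embryo lies beyond the E18.5 livers in some gains and below the E14.5 livers in others.

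Promoters were taken from 1000 bases before to 500 after the 5′ end of a protein-coding gene. They changed far less than the tiles as a whole, but at a lower level. Tiles within 1 kb of a start site stood at 16.4% at E14.5, and tiles between genes at 59.5%. Whether the lower level accounts for the smaller change was not tested. The median difference over 19,969 promoters with at least 3 covered CpGs was 0.03 points. At E18.5, 119 were called more methylated (0.596%) and 8 less methylated (0.0401%). Without E14.5 replicate 1 the counts were 6 and 0, and without E14.5 replicate 2 they were 29 and 2, in fits where the E18.5 pair alone gives the spread. The 5 largest gains were at A930004D18Rik, Stfa2, Gm11051, Gm5346 and Ces1a, from 23.9 to 27.4 points, and each held 3 to 6 CpGs. Ces1a, a liver carboxylesterase, stood at 45.3% and 49.7% at E14.5 and at 70.3% and 72.5% at E18.5. The 5 largest losses were at 2810055G20Rik, B3galt2, Ctage5, Scx and 9030617O03Rik, from 18.2 to 23.3 points. Without E14.5 replicate 1 these 10 promoters lost the call, while each still differed by more than 15 points in the same direction. The promoter of Scx, a tendon transcription factor, held 79 CpGs and went from 58.6% and 54.7% to 37.9% and 36.1% (adjusted p = 0.0020). The promoter of 2810055G20Rik (chr16) went from 50.9% and 47.1% to 22.7% and 28.6% (adjusted p = 0.00040).

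At genes of globins and heme synthesis 8 of 152 tiles (5.26%) were gains and 0 losses, with a median difference of 1.51 points. At genes of erythroid proteins, which make the red cell membrane and its receptors, 17 of 684 (2.49%) were gains and 0 losses, with a median of 1.94 points. Tiles from 5 kb before the 5′ end to the 3′ end of each gene were counted, and over all protein-coding genes 1.38% of 428,420 such tiles were called as gains and 0.0717% as losses, with a median of 4.21 points. Leaving out each liver in turn gave 5 to 10 and 9 to 25 gains, in fits where the gains over all 726,814 tiles ran from 4866 to 32,716. In every list the count was highest without E14.5 replicate 2, as was that total, and there the share at erythroid genes was no longer above that of all tiles. In Hemgn, an erythroid nuclear protein, a tile in an intron went from 31.6% and 39.5% to 67.9% and 61.2% (chr4:46420001-46421000, adjusted p = 7.9e-08). In Uros, an enzyme of heme synthesis, a tile with an exon went from 25.9% and 28% to 52.6% and 52.7% (adjusted p = 1.7e-08). At both of these tiles the E10.5 embryo stood at 82.4% to 88.2%, above all 4 livers. Ermap, a red cell adhesion protein, had 3 called tiles, and its promoter went from 14.8% and 14.1% to 35.5% and 33.9% (adjusted p = 3.8e-05). The promoter of Klf1 went from 13.4% and 9.89% to 28% and 32.8% (edgeR adjusted p = 0.0044). Of 26 promoters of erythroid protein genes 3 were gains and 0 losses, where 0.596% of all promoters were gains. Their median difference was 1.13 points, and 9 were lower at E18.5. At the globin genes themselves few CpGs could be measured. Hbb-b1 had 1 tile, at 43.2% and 45.6%, then 52.4% and 58.7%, and Hba-a1, an alpha-globin, 2 tiles with a largest difference of 8.50 points, and neither gene had a called tile. Their reads may be shared with near-identical copies. In Slc4a1, the band 3 anion exchanger, 0 of 19 tiles were called, the largest difference being 14.97 points.

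The other blood lists varied. Of 1178 tiles at blood transcription factors 35 (2.97%) were gains and 1 a loss, with a median of 3.31 points. Of 20 promoters of these genes 2 were gains and 0 losses, where 0.596% of all promoters were gains. Their median difference was 0.04 points, and 6 were lower at E18.5. Mecom had 8 gains and 1 loss among 220 tiles, Zfpm1, which encodes the GATA1 partner FOG1, 7 gains among 56, and Gfi1 and Gfi1b, zinc finger repressors of blood lineages, 3 gains each among 10 and 14. The Gfi1b tile chr2:28475001-28476000 went from 19.6% and 23.4% to 42.3% and 44.1% (adjusted p = 7.9e-08), and the promoter of Lmo2, a partner of the erythroid transcription complex, from 12.9% and 16.2% to 32.9% and 33.9% (adjusted p = 0.0010). The Gfi1 tile chr5:108150001-108151000, with 88 CpGs, was at 0.71% in the embryo, 9.15% and 6.70% at E14.5 and 31.1% in both E18.5 livers (adjusted p = 3.3e-28). Stem and progenitor genes had 8 gains among 259 tiles (3.09%), 2 of them in Kit, a receptor of progenitors and mast cells, and megakaryocyte genes 7 among 267 (2.62%), of which the tile at Itga2b, a platelet integrin, went from 43.9% and 39.5% to 70.5% and 69.7% (adjusted p = 3.5e-08). Neither list had a loss, and their medians were 4.05 and 4.44 points. Macrophage and granulocyte genes had 2 gains among 208 tiles (0.962%) and lymphocyte genes 6 among 459 (1.31%), both near or under the share over all genes, with medians of 5.03 and 5.47 points. Over the same fits, with 4866 to 32,716 gains among all tiles, there were 22 to 55 gains at transcription factors, 4 to 13 at progenitor genes, 4 to 19 at megakaryocyte genes, 0 to 10 at macrophage and granulocyte genes and 4 to 22 at lymphocyte genes.

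Lists of hepatocyte genes held gains and a few losses, in shares that lay below, near or above those over all protein-coding genes (1.38% gains, 0.0717% losses). Hepatocyte transcription factors had 5 gains and 2 losses among 564 tiles (0.887% and 0.355%). The losses were in Prox1, a regulator of liver growth, where chr1:191952001-191953000 went from 63.6% and 67% to 46.9% and 51.3% (adjusted p = 0.045), and in Ppara, the receptor that controls fatty acid oxidation. Plasma protein genes had 2 gains (0.683%) and 0 losses among 293 tiles, coagulation and complement genes 7 (1.72%) and 0 among 408, apolipoprotein and lipid transport genes 5 (1.57%) and 1 among 318, and urea cycle and amino acid genes 7 (1.60%) and 1 among 437. Glucose and glycogen genes had 8 (3.07%) and 0 among 261, of which 7 gains were among the 34 tiles of Pygl, the liver glycogen phosphorylase, bile acid genes 7 (2.55%) and 0 among 274, fatty acid oxidation genes 1 (0.312%) and 1 among 321, and detoxification genes 8 (3.42%) and 1 among 234. The detoxification gains included 3 of 12 tiles at Cyp2b10, an inducible cytochrome P450, where chr7:26683001-26684000 went from 41.3% and 49.7% to 72.8% and 61.0% (adjusted p = 3.7e-05). The single losses were at Aldh2, acetaldehyde dehydrogenase (chr5:122042001-122043000, 54.6% and 52.7%, then 34.2% and 35.6%, adjusted p = 0.00020), Acsl1, which activates long-chain fatty acids (55.5% and 60.3%, then 41.2% and 39.0%, adjusted p = 0.0017), Scarb1, the HDL receptor, and Arg1, the last enzyme of the urea cycle. Losses at these 4 genes were of 15.05 to 18.8 points. Fetal liver and growth genes had 26 gains (2.64%) and 2 losses among 986 tiles. Relative to the median shift, which leaves 0.145% of all tiles as gains and 0.286% as losses and so turns the balance over the whole genome, there were 1 gain and 6 losses at detoxification genes, 1 and 4 at glucose genes, 0 and 4 at coagulation genes, 0 and 4 at hepatocyte transcription factors and 0 and 3 at plasma protein genes. On that scale apolipoprotein genes had 1 and 2, urea cycle genes 1 and 3, fatty acid genes 1 and 2, bile acid genes 0 and 0, and fetal liver and growth genes 4 and 6. The median difference in these 10 lists, against 4.21 points over all protein-coding genes, ran from 2.58 points at fatty acid oxidation genes to 5.65 points at detoxification genes. At Alb 0 of 5 tiles were called, at Afp 0 of 14, at Hnf4a 0 of 51, at G6pc, glucose-6-phosphatase, 0 of 11, at Tat, tyrosine aminotransferase, 0 of 13, and at Cyp7a1, the first enzyme of bile acid synthesis, 0 of 4, while Cps1, the first of the urea cycle, had 1 gain among 26. With so few tiles a gene, a count of 0 is near what the share over all genes gives. Leaving out each liver in turn, again with 4866 to 32,716 gains among all tiles, gave 2 to 17 gains and at most 1 loss at hepatocyte transcription factors, 1 to 8 gains at plasma protein genes, 3 to 6 at apolipoprotein genes, 2 to 14 at coagulation genes and 0 to 14 at urea cycle genes. It gave 4 to 17 at glucose genes, 1 to 15 at bile acid genes, 2 to 4 at fatty acid genes, 2 to 17 at detoxification genes and 14 to 59 at fetal liver and growth genes. The single losses at apolipoprotein, urea cycle and fatty acid genes each lost their call in at least 1 of these fits, and without E14.5 replicate 1 detoxification genes had 3 gains and 3 losses. The promoter of Alb stood at 56.0% and 58.1%, then 63.4% and 61.4%, and that of Hnf4a at 59.1% and 61.9%, then 60.05% and 57.2%, and neither was called.

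Of the remaining lists, endothelial genes had 15 gains among 431 tiles (3.48%) and 0 losses, with a median of 4.13 points. In Kdr, the VEGF receptor of endothelium, the tile chr5:76357001-76358000 went from 20.3% and 28.1% to 47.1% and 54.5% (adjusted p = 1.6e-06). The promoter of Nos3, endothelial nitric oxide synthase, went from 38.9% and 46.2% to 60.3% and 68.7% (adjusted p = 0.0017). The counts of gains in the remaining lists varied with the liver left out, as did the count over all tiles. Beside the 1.38% over all protein-coding genes, stellate and mesenchymal genes had 4 gains among 426 tiles (0.939%) and bile duct genes 2 among 123 (1.63%). Genes listed for imprinted control promoters had 2 gains among 318 tiles along the genes (0.629%), and 0 of their 12 promoters were called. DNA methylation enzymes had 3 gains (0.706%) and 1 loss among 425. The medians of these 4 lists were 5.39, 5.48, 3.28 and 2.61 points. The loss was in Tet3, an enzyme that oxidises methylcytosine, where chr6:83363001-83364000 went from 61.7% and 62.0% to 44.5% and 44.1% (adjusted p = 0.0017), and it was not called without E18.5 replicate 2. Relative to the median shift, globin and heme genes had 3 gains and 1 loss among 152 tiles and erythroid genes 7 and 3 among 684. Blood transcription factors had 5 gains and 8 losses among 1178 tiles on that scale, and endothelial genes 5 and 4 among 431. The other blood lists and the last 4 lists had at most 2 gains and 2 losses each.

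**Figure D4:**
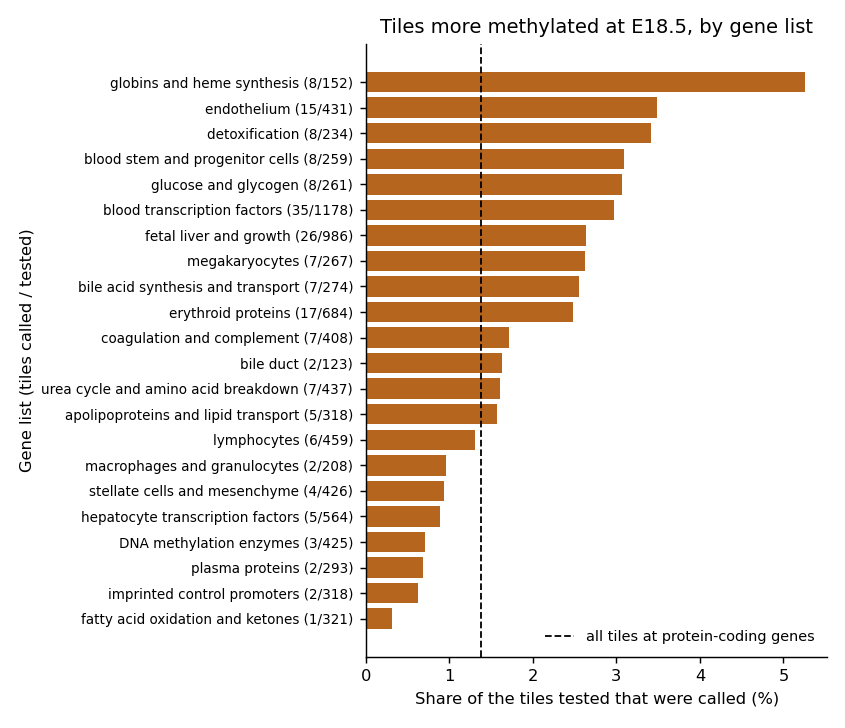
Share of tested tiles called more methylated at E18.5 (percent) at the genes of each list, with called and tested tiles in brackets and a dashed line at the share over all protein-coding genes, 1.38%. The shares run from 0.312% at fatty acid oxidation genes to 5.26% at globin and heme genes, and their order differs when a liver is left out.

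The size of the rise differed with where a tile lay and with its level in whole E10.5 embryos. Tiles between genes went from 59.5% ± 1.7 to 64.5% ± 0.2 (SD, n = 2 each), introns from 64.4% ± 1.8 to 68.8% ± 0.2, exons from 67.9% ± 1.4 to 71.2% ± 0.1, and tiles within 1 kb of a start site from 16.4% ± 0.4 to 16.9% ± 0.1. CpG-dense tiles stood at 4.64% ± 0.32 and 5.56% ± 0.28. That difference of 0.917 points over reads was 0.138 points as a mean over CpGs, with a median over tiles of -0.04, and the 0.484 points near start sites became 0.846. The groups did not overlap in any of these 5 classes, and the exact permutation p was 0.33 in each, the smallest it can be. By the level in whole E10.5 wild-type embryos, which is not that of earlier liver cells, tiles under 10% stood at 2.60% ± 0.04 and 2.42% ± 0.02, tiles of 80% to 90% at 67.1% ± 2.0 and 72.6% ± 0.3, and tiles of 90% or more at 77.1% ± 1.9 and 81.5% ± 0.3. In tiles under 10% the sign turned when CpGs were weighted equally (0.16 points in place of -0.19). The median in the embryo was 85.2% over all tiles. The called gains had a median of 83.5% in the embryo, 52.5% at E14.5 and 69.5% at E18.5. The called losses had a median of 72.6% in the embryo, 58.3% at E14.5 and 39.9% at E18.5. Gains were rarer in tiles with many CpGs, at 2.53% of tiles with 8 to 10 CpGs and 0.444% of tiles with more than 30.

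**Figure D5:**
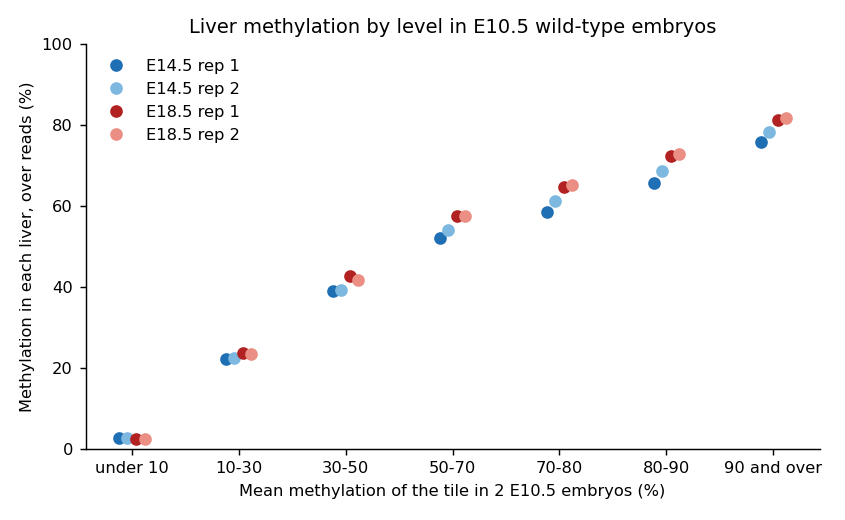
Methylation in each liver (percent of reads) for tiles grouped by their mean level in 2 E10.5 wild-type embryos (percent). The E18.5 livers lie above the E14.5 livers in all groups but the lowest, where the levels are 2.41% to 2.63%, and in the groups above 10% the liver levels at both stages rise with that of the embryo.

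Short sequence motifs were counted on both strands of each called tile as a description. AGATAA, the core bound by GATA factors, stood in 52.5% of gains, 43.4% of losses and 41.5% of all tiles. TGTTTAC, a forkhead core, stood in 11.9% of gains, 19.1% of losses and 13.6% of all tiles. GAGGAAGT, an Ets core, stood in 7.25%, 9.18% and 6.58%, and CCACACCC, a KLF core, in 8.43%, 10.2% and 8.49%. GTTAAT, part of the HNF1 site, stood in 27.4%, 24.7% and 26.7%, and CAAAGTCC, of the HNF4 site, in 3.84%, 3.57% and 4.18%. ACANNNTGT, of the glucocorticoid receptor site, stood in 28.5%, 29.6% and 28.5%. TTGCGCAA, of the C/EBP site, stood in 0.0431%, 0.510% and 0.145%, which rests on only 5 gains and 2 losses. The median G + C content was 45.2% in gains, 46.7% in losses and 46.2% in all tiles, and its part in these shares was not tested.

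The same comparison was available in livers that the wild-type calls did not use, namely 2 livers at each stage that were homozygous for MommeD28, a mutant allele of Rlf. Replicate 1 at E14.5 was again male and the depth again lower at E18.5. The study describes the wild-type and mutant E14.5 livers as littermates, so the genotypes share litters at that stage. For the E18.5 livers it does not say. Over all reads on chromosomes 1 to 19, the mutant livers stood at 60.3% and 59.2% at E14.5 and at 65.5% and 61.4% at E18.5. The mutant E18.5 livers thus differed from each other about as much as the wild-type stages did. In the mutants 11,479 of 717,578 tiles (1.6%) were called as gains and 265 (0.0369%) as losses. Of the wild-type gains 98.1% had a higher mean at E18.5 in the mutants, against 87.8% of all tiles, and in 82.6% the mutant livers did not overlap, against 59.8%. Of the wild-type losses 96.4% had a lower mean, against 12.1% of all tiles, and in 81.4% the mutant livers did not overlap, against 3.96%. The tiles called in both genotypes were 2058 gains (17.7% of the wild-type and 17.9% of the mutant gains) and 92 losses (23.5% and 34.7%). These shares are of all calls. Of the wild-type calls, 10,021 gains and 367 losses met the coverage minimum in the mutant livers and could be called there. The median change in the mutants was 10.499 points at wild-type gains, -10.6 points at wild-type losses and 5.18 points over all tiles. At the gains and losses it was smaller in size than the 16.6 and -17.2 points by which they had been chosen in wild type. All 27 called HoxA tiles had non-overlapping mutant livers in the same direction, with a median difference of 24.4 points. A test of whether the change with stage differed between genotypes, in 1 edgeR model over 8 livers, called 1 of 672,782 tiles (0.000149%). Its unadjusted p was under 0.05 in 21,666 of these tiles (3.22%).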

How the data were processed

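Whole genome bisulphite libraries of 4 wild-type livers were compared, with 4 mutant livers and 2 wild-type E10.5 embryos for reference. Per the labels and the study's methods, the authors aligned trimmed paired reads with Bismark and Bowtie2 to mm9 carrying FVB/NJ substitutions, removed duplicates and merged both strands, and deposited counts of unconverted and converted reads per CpG. Their rounded percentages were not used. RNA counts per gene were deposited by the authors from Tophat and htseq-count without strand, and were scaled here to RPKM. Reads were summed per tile or promoter and tested with edgeR 4.0.16 (quasi-likelihood, 1 intercept per library, Benjamini-Hochberg), after a check on simulated data. In the wild-type tile fit the residual spread was shrunk fully to the trend shared by all tiles, in the promoter, mutant and interaction fits in part. Tiles needed 8 CpGs and promoters 3, each CpG with 6 reads in every liver. limma 3.58.1 was an alternative, with read depth, thinning, tile width, CpG minimum, size of difference, centring, a replicate block, and leaving out each liver. Named tiles were the 10 largest gains and losses among called tiles whose livers did not overlap between the stages. They had at least 10 reads per CpG and lay 20 kb apart. Also named were the 5 largest promoter changes each way, up to 4 genes per list, a fixed set of liver and blood genes, and the longest runs. Members and lists were chosen with earlier results of these data known. Ahsp, Vsig4 and Kcnq1ot1 were listed but not matched on chromosomes 1 to 19. The E14.5 livers are described as littermates. The p-values rest on the spread between these livers only, in the wild-type tile fit as pooled over tiles and not as seen at a single tile. Some genes and sequences that these rules name are not reported here. The CpGs covered by 6 or more reads in all 4 livers had 21.0 to 42.1 reads on average per liver.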

Additional observations from a re-analysis of the deposited data

Results flagged for a closer look

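A tile in an intron of Wdr63 (chr3:145747001-145748000, 14 CpGs) was the 1 tile with an interaction of stage and genotype at an adjusted p under 0.05 and above 15 points. At that p without a minimum size there were 3. The wild-type livers stood at 90.8% and 86.6% at E14.5 and at 96.6% and 94.6% at E18.5, and the mutant livers at 94.8% and 97.6%, then 76.5% and 85.1%. These levels are over the CpGs covered in the 4 wild-type livers. Over the CpGs covered in all 8 livers, which the test used, the mutant change minus the wild-type change was -22.8 points (edgeR adjusted p = 0.0071).

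Chromosome X was outside the tiles tested. In females its methylation was 57.6% in the E14.5 liver and 62.5% and 62.7% in the E18.5 livers, a difference of 5.04 points that was not tested. The lambda DNA, which should be unmethylated, showed at most 0.0590% in these livers.

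The GFP transgene, also outside the tiles, stood at 12.5% and 12.3% at E14.5 and at 10.3% and 10.49% at E18.5, a difference of -2.03 points against the direction of the autosomes. The groups did not overlap, and the difference was not tested. In the mutant livers the transgene stood at 24.1% and 25.4% at E14.5 and at 26.0% and 24.9% at E18.5, where the stages overlapped.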

How the results depend on the processing

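The direction of the mean difference held under every setting tried, at 3.06 to 5.16 points without each liver and 5.28 points as a mean over CpGs. Counts of tiles depended on the settings, and beyond a setting's own construction the cause was not tested. Gained tiles numbered 7237 at 10 reads per CpG, 24,160 at a width of 500 bases, 49,354 with at least 4 CpGs, 1301 with at least 15, 65,720 above 10 points, 194 above 25 points, 1053 centred on the median, and 4866 to 32,716 without each liver. Lost tiles numbered 1228 at 500 bases, 96 at 2 kb, 682 with at least 4 CpGs, 116 with at least 15, 1665 above 10 points, 21 above 25 points and 2082 centred. Centring moved the share of gains among calls from 96.7% to 33.6%. Promoter gains numbered 46 with limma, 73 with at least 8 CpGs, 363 above 10 points, 3 above 25 points and 6 to 153 without each liver, and promoter losses 23, 0 and 0 to 11 (above 10 points, above 25 points, and without each liver). In the mutants 36,282 gains and 674 losses exceeded 10 points, and 229 and 16 exceeded 25. The interaction called 2 tiles above 10 points and 0 above 25, where edgeR gave 21,666 (3.22% of those tested) at an unadjusted p under 0.05. In tiles under 10% in the embryo the difference turned to 0.157 as a mean over CpGs. The named tiles and promoters were picked for the largest differences in these same livers, so a call kept is no independent check. The fits of tiles and of promoters also pooled the spread to different degrees. All 20 named tiles kept their calls wherever they could be tested, while all 10 named promoters lost theirs without E14.5 replicate 1 and 7 without E14.5 replicate 2, with differences still above 15 points.

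Same-numbered livers of the stages are linked in the labels only by their replicate number. Their deviations correlated at 0.012 over tiles, which cannot show whether they shared a batch. With a replicate block 11,650 tiles were gains and 394 losses, 177 promoters gains and 9 losses, 12,225 mutant tiles gains and 278 losses, and 1 tile differed between genotypes.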
